A study of Mus musculus with 12 samples.

Results

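Hedgehog signalling was followed through 38 genes, 21 of the core pathway and 17 of the primary cilium, in Rpl10a LOF/LOF and wild-type mouse embryos at E8.5. The members were taken from a list of gene symbols, and each was found in the deposited table of 22467 transcripts by the transcript identifier that carries its symbol in the GENCODE annotation of GRCm38. The core group holds genes that make and release the ligand, its receptors and antagonist, regulators of Smoothened, the Gli transcription factors with their partners, and the target gene Foxa2. The cilium group holds intraflagellar transport (IFT) proteins, their motors, ciliary GTPases and the transition zone. Of the 38, 37 passed the filter on RPF counts and were tested, among 12576 transcripts in all. The exception was Tctn2, a transition zone gene, whose listed transcript has no coding sequence in GENCODE M21. It had 0 RPF counts in all 6 RPF libraries, and its RNA lay between 15.8 and 18.8 CPM.

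Hedgehog ligands are lipid-modified proteins that are secreted with the help of Dispatched and Scube proteins. Binding of the ligand to Patched frees Smoothened to enter the primary cilium, where the Gli factors are held and cut into repressors in the absence of signal and turned into activators in its presence. In the early embryo, Sonic hedgehog from the notochord and floor plate patterns the neural tube and the somites, and loss of IFT proteins disturbs both the activator and the repressor side of the pathway.

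The study compared 3 wild-type embryos (Rpl10a +/+, below WT) with 3 embryos homozygous for a loss-of-function allele (Rpl10a LOF/LOF, below LOF), all harvested at E8.5 on a C57BL/6 background and lysed one by one in the presence of cycloheximide. The LOF allele was made with a guide RNA against the start of the Rpl10a coding sequence. It adds amino acids behind the first methionine of RPL10A, a protein of the large ribosomal subunit that is still made and built into ribosomes, and the allele is carried by the whole embryo. Each embryo gave 1 RPF library, the mRNA pieces protected by ribosomes, and 1 RNA library of rRNA-depleted total RNA, and no embryos were pooled. The purpose was to find mRNAs whose translation depends on RPL10A.

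Library totals ran from 7041357 to 10863499 counts for RPF and from 9132521 to 26561843 for RNA. Levels below are CPM, counts scaled to a total of 1000000 over the tested transcripts with TMM factors, found apart for RPF and RNA. A difference was called at FDR < 0.1, the Benjamini-Hochberg adjusted p of edgeR's quasi-likelihood test over all 12576 transcripts. By that rule 2.19% of all transcripts were called in RPF and 5.02% in RNA, and an unadjusted p below 0.05 was found for 13.7% and 17.0%. Rpl10a itself lay between 1562 and 1679 CPM in WT and between 940 and 1125 CPM in LOF RPF libraries. Its RNA lay between 789 and 870 CPM in WT and between 695 and 753 CPM in LOF. Both were called lower in LOF, with log2 fold changes of -0.64 in RPF (FDR = 0.00689) and -0.23 in RNA (FDR = 0.0678, edgeR). Y-linked reads separated the embryos in another way, since they made up 163 to 181 CPM of RPF in all 3 WT embryos and 153 CPM in LOF replicate 2, but 9.33 and 0.38 CPM in LOF replicates 1 and 3. Genotype and the sex of the embryo therefore cannot be fully told apart. A covariate for Y-linked reads sets LOF replicate 2 alone against the WT embryos, so that genotype differences from such fits rest on 1 LOF embryo. Markers of the tissues that send the signal were present in both genotypes, on a list that shares Shh and Foxa2 with the core genes. Summed over 12 notochord, node and floor plate markers, RPF lay between 165 and 173 CPM in WT and between 155 and 179 CPM in LOF, and none of the 10 tested was called in RPF or RNA. Of 12 markers of other E8.5 embryo tissues, summed RPF lay between 403 and 424 CPM in WT and between 410 and 445 CPM in LOF. Kdr alone held 196 to 211 CPM of that sum in WT and 201 to 254 CPM in LOF. By sign, 7 of the 12 were lower in RPF and 5 higher. Of these markers edgeR called 1 in RPF, Msgn1 of the presomitic mesoderm (log2 fold change -0.55, FDR = 0.0855), and 0 in RNA, where 3 had an unadjusted p below 0.05. LOF embryos lay below WT embryos without overlap in RPF for 3 of the 12 (9.45% of all transcripts), Msgn1, Tbx6 (-0.41, FDR = 0.118) and Pax6 (-0.37, FDR = 0.192). Their part in the results below was not tested. Extraembryonic and blood markers also differed. Of 11 visceral endoderm and yolk sac markers tested, all had negative log2 fold changes in RPF and RNA, and 9 were called lower in RPF and 11 in RNA, with summed RNA levels of 3170 to 3980 CPM in WT and 900 to 2250 CPM in LOF. Of 7 primitive erythroid markers, all had positive log2 fold changes in RPF (median 1.31) and RNA (median 1.08), and edgeR called 2 in RPF and 0 in RNA, where 5 had an unadjusted p below 0.05 and the lowest FDR was 0.103. In whole embryos, fewer cells of a type and less RNA per cell cannot be told apart.

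In WT embryos the core pathway genes carried few ribosomes for their RNA. To compare genes, RPF was taken per kb of counted coding sequence and RNA per kb of transcript, and the log2 ratio of both was set to 0 at the median of 12504 transcripts in each embryo. The median ratio of the 21 core genes was -0.80 and that of 16 cilium genes 0.02. Of the core genes, 11 lay in the lowest 25% of all transcripts and 2 in the highest 25%, against 1 and 1 of the 16 cilium genes. The ratio divides by the length of 1 annotated transcript per gene, so that other isoforms or untranslated regions that are not transcribed would shift it. Exons of 8 of the 38 transcripts overlap another gene in GENCODE M21, always on the opposite strand, and 4 of them (Shh, Gas1, Kif7 and Tctn1) over more than 10% of their length.

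Smo, the membrane protein that passes the signal on, stood at the bottom. Its log2 RPF per RNA was -3.89, -3.71 and -3.64 in the 3 WT embryos, at the 0.376 percentile of all transcripts. Its RNA, at 76.1 ± 1.05 per kb in CPM units (SD, n = 3), was the highest of the 37 genes, while its RPF level was 9.52 ± 0.857. Next came Gpr161, a ciliary receptor that holds the pathway off by raising cAMP, at -2.26, -2.55 and -2.43, and Gas1, a co-receptor for the ligand, at -2.40, -2.05 and -2.45. The Gas1 transcript is annotated without untranslated regions, which makes its RNA level per kb larger than a longer transcript would give. The mean ratios of Gpr161 and Gas1 differ by less than the spread between embryos.

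The next lowest ratios were those of Evc and Evc2, which tether Smoothened at the base of the cilium, with mean ratios of -1.93 and -1.79, and then Gli1 at -1.77 and Ptch1, the receptor that represses Smoothened, at -1.75. These 4 differ from one another by about as much as the embryos do, whose SD was 0.157 to 0.186. At the other end stood Sufu, which binds Gli proteins and restrains them, at 0.79 ± 0.195, Hhip, a decoy receptor for the ligand, at 0.95 ± 0.253, and Rab23, a GTPase that dampens the pathway, at 1.00 ± 0.133 (SD, n = 3). Shh, the ligand, lay above the median at 0.36 ± 0.074. Among the cilium genes the ratios ran from -0.85 for Arl13b, a GTPase of the ciliary membrane, to that of Rab23, and the IFT-B genes Ift88, Ift172, Ift52 and Ift57 all lay between -0.08 and 0.09.

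**Figure D1:**
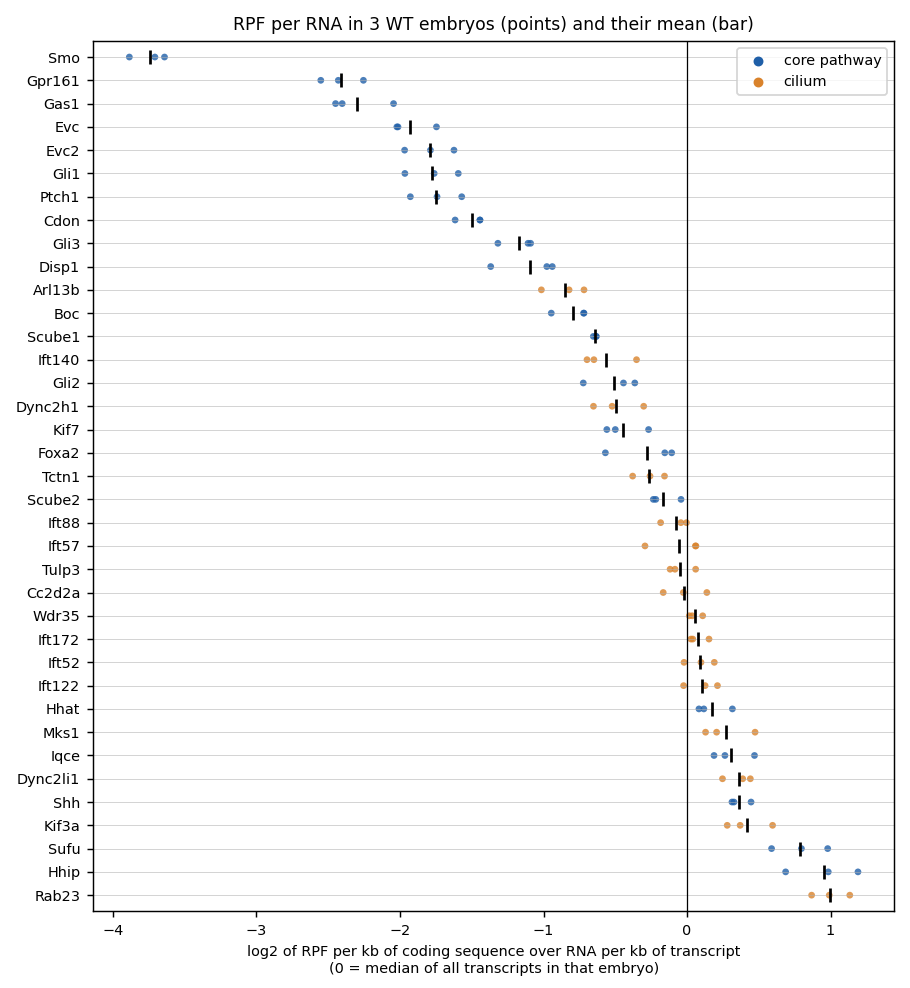
Log2 of RPF per kb of coding sequence over RNA per kb of transcript for 37 genes in the 3 WT embryos (points, mean as bar), with 0 at the median of all transcripts in that embryo and genes in order of their mean. Core pathway genes (blue) fill the low end, from Smo at -3.75 to Disp1 at -1.10, while most cilium genes (orange) lie near 0.

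The 5′ untranslated regions (5′UTRs) and start codons were read to see what these transcripts share. Upstream ATGs were found in 14 of 20 core genes with a 5′UTR of at least 20 bases and in 9 of 16 cilium genes, against 51.6% of 12053 transcripts. Core genes with an upstream ATG had a median ratio of -1.13 and the 6 without one of -0.36. Over all transcripts these medians were -0.35 and 0.30, so that both core medians lay below them, though not every core gene did. The 5′UTRs of core genes had a median length of 223 bases and a median GC content of 68.8%, against 182 bases and 64.8% over all transcripts. A purine stood 3 bases before the ATG in 17 of 20 core genes, against 87.0% of all transcripts, and a G followed the ATG in 10 of 20, against 52.5%. The start contexts of 6 genes that the results turn on are shown from 9 bases before the ATG to 3 after it, with the start codon in capitals, as GENCODE M21 gives them for GRCm38:
Smo: tgtttggccATGgcc
Ptch1: ggcggcaacATGgcc
Gli1: tgagacgccATGttc
Sufu: cgcgccccaATGgcg
Scube2: gcggctgccATGggg
Cc2d2a: acggacaagATGaat
Smo, with the lowest ratio, has both a purine 3 bases before the ATG and a G behind it, whereas Sufu, near the top, lacks the purine. Evc and Evc2, the other core genes without that purine, had low mean ratios of -1.93 and -1.79. Smo lies on the plus strand at chr6:29735694-29761365 with 12 exons, Ptch1 on the minus strand at chr13:63508328-63565735 with 23 exons, and Gli1 on the minus strand at chr10:127329882-127341974 with 13 exons. Smo and Ptch1 each have 2 upstream ATGs, Gli1 has 1, Cc2d2a has 9, and Sufu and Scube2 have 0.

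Between the genotypes, 1 of the 37 genes was called in RPF, the secreted ligand carrier Scube2, which was lower in LOF. Over all transcripts 2.19% were called. The log2 fold changes of the other 36 lay between -0.28 for Gpr161 and 0.25 for Cc2d2a, all within 0.3 of 0, as did 81.0% of all transcripts. The LOF embryos lay entirely below the WT embryos for 4 genes (Scube2, Boc, Cdon and Sufu; background 9.45%) and entirely above them for 0 (background 9.92%). The median RPF log2 fold change was -0.087 for the core genes and 0.001 for the cilium genes, with 0.004 over all transcripts.

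Scube2 (ENSMUST00000106729.7, chr7:109798690-109865679, minus strand, 22 exons) encodes a secreted protein that takes the cholesterol-modified ligand off the membrane of the sending cell. Its RPF level was 12.7, 16.6 and 12.6 CPM in the WT embryos and 7.43, 6.98 and 7.23 CPM in the LOF embryos, from 121 to 142 and from 51 to 76 counts. All LOF embryos lay far below all WT embryos, and they lay close together. The fitted log2 fold change was -0.95 (standard error 0.15, 95% interval -1.29 to -0.61, edgeR FDR = 0.0275), which is 0.518 of the WT level. Scube2 RNA was 11.1, 12.8 and 11.1 CPM in WT and 9.64, 10.3 and 9.65 CPM in LOF. The RNA difference was smaller, with no overlap of the genotypes, and was not called (log2 fold change -0.25, standard error 0.10, edgeR FDR = 0.249).

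The RPF difference of Scube2 beyond its RNA difference was -0.70 (standard error 0.18, 95% interval -1.08 to -0.32), the largest in size of the 37 genes. Relative to the WT mean, log2 RPF per RNA was -0.06, 0.13 and -0.07 in WT and -0.62, -0.80 and -0.67 in LOF. Its unadjusted p of 0.00128 in edgeR's interaction test did not hold after adjustment over 12576 transcripts (FDR = 1.0). The RPF call ended without WT replicate 1 (FDR = 0.106), WT replicate 2 (FDR = 0.154) or LOF replicate 3 (FDR = 0.113), when 12, 4 and 40 transcripts were called in all. It also ended with a covariate for Y-linked reads, which sets LOF replicate 2 alone against the WT embryos. In those 4 fits its log2 fold change lay between -1.02 and -0.82. The visceral endoderm markers were lower in the same embryos, with a median log2 fold change of -1.10 in RPF and -1.27 in RNA, and their part in the Scube2 result was not tested.

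**Figure D2:**
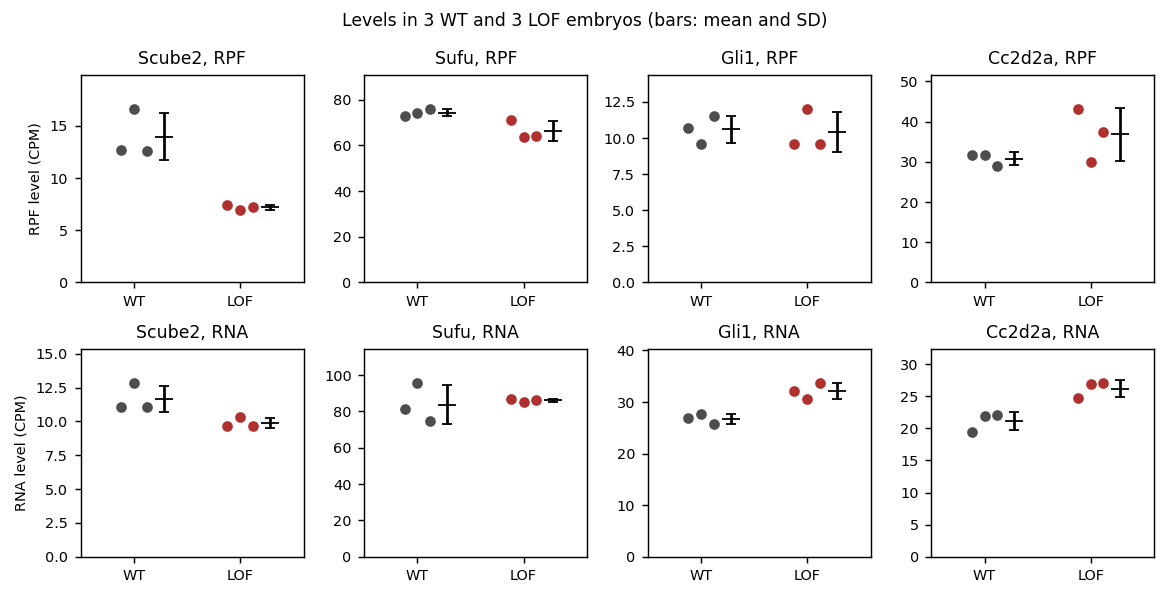
RPF (top) and RNA (bottom) levels in CPM of Scube2, Sufu, Gli1 and Cc2d2a in each of 3 WT (grey) and 3 LOF (red) embryos, with mean and SD as bars. Scube2 RPF fell from 14 to 7.21 CPM on average while its RNA went from 11.7 to 9.86 CPM, and Gli1 RNA lay between 25.7 and 27.7 CPM in WT and between 30.6 and 33.6 CPM in LOF.

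The other genes of ligand production did not pass the test. Shh RPF was 18.0, 20.7 and 18.7 CPM in WT and 25.8, 20.4 and 17.1 CPM in LOF, and its RNA was 17.9, 22.6 and 20.2 against 24.1, 19.4 and 23.5 CPM. The genotypes overlapped in both. The log2 fold changes were 0.13 in RPF (95% interval -0.20 to 0.46) and 0.12 in RNA (95% interval -0.13 to 0.36), so that a 2-fold change of either was outside the interval. In GENCODE M21, 15.7% of the Shh transcript overlaps an antisense transcript, and 12.7% overlaps another noncoding gene on the opposite strand. Whether their reads were counted apart is not given. Hhat, which adds palmitate to the ligand, Disp1, which exports it, and Scube1, the relative of Scube2, had RPF log2 fold changes from -0.11 to -0.02, and their embryos overlapped.

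None of the 6 receptors, co-receptors and antagonists was called in RPF or RNA by edgeR, with the lowest FDR at 0.419 and 0.238. Ptch1, itself a target gene that rises with signalling, had RPF of 105, 100 and 108 CPM in WT and 111, 90.0 and 94.1 CPM in LOF, and RNA of 384, 413 and 350 against 423, 392 and 377 CPM. Both ranges overlapped. Its log2 fold change was -0.09 in RPF (95% interval -0.28 to 0.10) and 0.06 in RNA (95% interval -0.09 to 0.21). Smo RPF was 20.0, 22.4 and 24 CPM in WT and 19.1, 18.4 and 20.3 CPM in LOF, with RNA of 288, 284 and 292 against 298, 278 and 296 CPM. Its ranges overlapped in both, and neither passed the test (RPF log2 fold change -0.20, FDR = 0.481; RNA 0.01, FDR = 0.912, edgeR). Beyond RNA, Smo RPF differed by -0.21 (standard error 0.10, unadjusted p = 0.0563, FDR = 1.0 in edgeR's interaction test), with all LOF embryos below all WT embryos.

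Hhip, a decoy receptor for the ligand and a target of the pathway, had RNA of 17.0, 14.6 and 14.2 CPM in WT and 12, 13.6 and 12.4 CPM in LOF. The genotypes did not overlap, but the difference was not called (log2 fold change -0.25, standard error 0.10, edgeR FDR = 0.238). Hhip RPF was 10.3, 10.9 and 12.2 CPM in WT and 12.2, 9.66 and 7.99 CPM in LOF, with a log2 fold change of -0.18 (95% interval -0.55 to 0.19), and the genotypes overlapped. The co-receptors Boc and Cdon, which help the ligand to bind Patched, had RPF log2 fold changes of -0.22 (FDR = 0.419) and -0.14 (FDR = 0.56, edgeR) with LOF embryos below WT embryos, and RNA log2 fold changes of -0.01 and -0.03. Gas1 had 0.06 in RPF and 0.08 in RNA.

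Of the regulators of Smoothened and of protein kinase A at the cilium (Gpr161, Evc, Evc2 and Iqce), none was called, with edgeR FDR of at least 0.716 in RPF and 0.646 in RNA. Gpr161 had 10 to 33 RPF counts per library, the fewest of the tested genes. Its interval in RPF was the widest, from -0.89 to 0.33, and the difference seen for Scube2 lies just outside it.

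Of the transducers, none was called in RPF, RNA or RPF beyond RNA by edgeR. All 5 (Sufu, Gli1, Gli2, Gli3 and Kif7) had positive RNA log2 fold changes, from 0.03 to 0.26, and all 5 had negative differences of RPF beyond RNA, from -0.34 to -0.07. With the covariate for Y-linked reads, which sets LOF replicate 2 alone against the WT embryos, the difference of RPF beyond RNA was -0.02 for both Gli1 and Gli3. Unadjusted p lay below 0.05 in the RNA test for 3 of them (17.0% of all transcripts), in the RPF test for 1 (13.7%) and in the interaction test for 1, Gli3 (4.44%).

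Gli1, a transcriptional activator whose own gene is a direct readout of Hedgehog activity, had RNA of 26.9, 27.7 and 25.7 CPM in WT and 32.1, 30.6 and 33.6 CPM in LOF. All LOF embryos lay above all WT embryos. Fitted on the log2 scale the difference was 0.26 (standard error 0.07, 95% interval 0.09 to 0.42, edgeR FDR = 0.108), close to the threshold, and with limma-voom it was called (FDR = 0.0865). It was not called with DESeq2 (FDR = 0.182), limma-voom with sva (FDR = 0.14) or the replicate number as a block (FDR = 0.192). With the covariate for Y-linked reads, which sets LOF replicate 2 alone against the WT embryos, the RNA difference was 0.19 and not called. Gli1 RPF was 10.7, 9.60 and 11.5 CPM in WT and 9.62, 12 and 9.61 CPM in LOF, and the genotypes overlapped. Its RPF log2 fold change was -0.03 (95% interval -0.35 to 0.29) and its RPF beyond RNA differed by -0.29 (standard error 0.15, edgeR FDR = 1.0). In GENCODE M21, 6.53% of the Gli1 transcript overlaps an antisense transcript.

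Sufu (chr19:46396896-46488804, plus strand, 12 exons) had RPF of 72.9, 74.2 and 75.8 CPM in WT and 71.1, 63.7 and 63.9 CPM in LOF. All LOF embryos lay below the WT embryos, LOF replicate 1 by little. The log2 fold change of -0.17 (standard error 0.08, unadjusted p = 0.0491) was not called by edgeR (FDR = 0.361), which called 276 of 12576 transcripts. It was called by limma-voom with sva (FDR = 0.0911), a fit that called 1306 of the 12576 transcripts. Sufu RNA was 81.4, 95.4 and 74.6 CPM in WT and 86.9, 85.2 and 86.2 CPM in LOF, with overlap and a log2 fold change of 0.03 (95% interval -0.14 to 0.21).

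Gli3, the main repressor among the Gli factors, had RPF of 107, 104 and 97.2 CPM in WT and 78.4, 114 and 85.7 CPM in LOF. LOF replicate 2 lay above all WT embryos and LOF replicates 1 and 3 below them. Gli3 RNA was 240, 269 and 216 CPM in WT and 292, 272 and 264 CPM in LOF, with overlap. The log2 fold changes were -0.15 in RPF (FDR = 0.636), 0.19 in RNA (FDR = 0.232) and -0.34 in RPF beyond RNA (standard error 0.16, FDR = 1.0, edgeR). Without LOF replicate 2 the RPF difference became -0.32 and was called (FDR = 0.03), when 1449 transcripts were called in all. That embryo is the only LOF embryo with Y-linked reads near the WT level, so without it genotype and sex cannot be told apart. With the covariate for Y-linked reads, which sets LOF replicate 2 alone against the WT embryos, the Gli3 RPF difference was 0.15.

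Gli2, the main activator early in signalling, had RPF of 45.8, 45.2 and 38.4 CPM in WT and 50.7, 40.4 and 46.6 CPM in LOF. Its RNA was 51.1, 64.6 and 45.3 CPM in WT and 60.4, 57.8 and 62.4 CPM in LOF, and the genotypes overlapped in both. The log2 fold changes were 0.09 in RPF (95% interval -0.15 to 0.32) and 0.15 in RNA (95% interval -0.09 to 0.40). Without WT replicate 2 the RNA differences of Gli2 (0.33, FDR = 0.0832) and Gli3 (0.28, FDR = 0.0822, edgeR) were called.

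Kif7, a kinesin that organises the ciliary tip where Gli proteins gather, had RNA of 24.2, 28.3 and 27.0 CPM in WT and 31.6, 30.1 and 30.4 CPM in LOF. The genotypes did not overlap, and the log2 fold change of 0.20 was not called (standard error 0.08, edgeR FDR = 0.227). Kif7 RPF was 32.6, 32.7 and 29.8 against 34.5, 31.1 and 37.9 CPM, a log2 fold change of 0.12 with overlap. In GENCODE M21, 21.4% of the Kif7 transcript overlaps an antisense transcript.

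Foxa2, a transcription factor of the node, notochord and floor plate and a Hedgehog target in the floor plate, had RPF of 11, 12.3 and 13.3 CPM in WT and 13.6, 12.7 and 11.3 CPM in LOF. Its RNA was 15.7, 13.2 and 13.9 CPM in WT and 12.5, 15.3 and 10.2 CPM in LOF. The genotypes overlapped in both, with log2 fold changes of 0.03 in RPF (95% interval -0.26 to 0.33) and -0.13 in RNA (95% interval -0.43 to 0.18). Of 8 Hedgehog-dependent neural tube and somite genes tested beside it, 0 were called by edgeR in RPF, RNA or RPF beyond RNA, against 2.19%, 5.02% and 0.0% of all transcripts. Unadjusted p lay below 0.05 for 0, 1 and 0 of them, against 13.7%, 17.0% and 4.44%. The 1 gene was Olig2, a factor of motor neuron progenitors, named after its values were seen. Its RNA was low, at 5.31, 3.84 and 4.24 CPM in WT and 2.72, 3.22 and 3.32 CPM in LOF, with a log2 fold change of -0.50 (edgeR FDR = 0.176). All LOF embryos lay below all WT embryos, as they did in RNA for 12.6% of all transcripts.

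**Figure D3:**
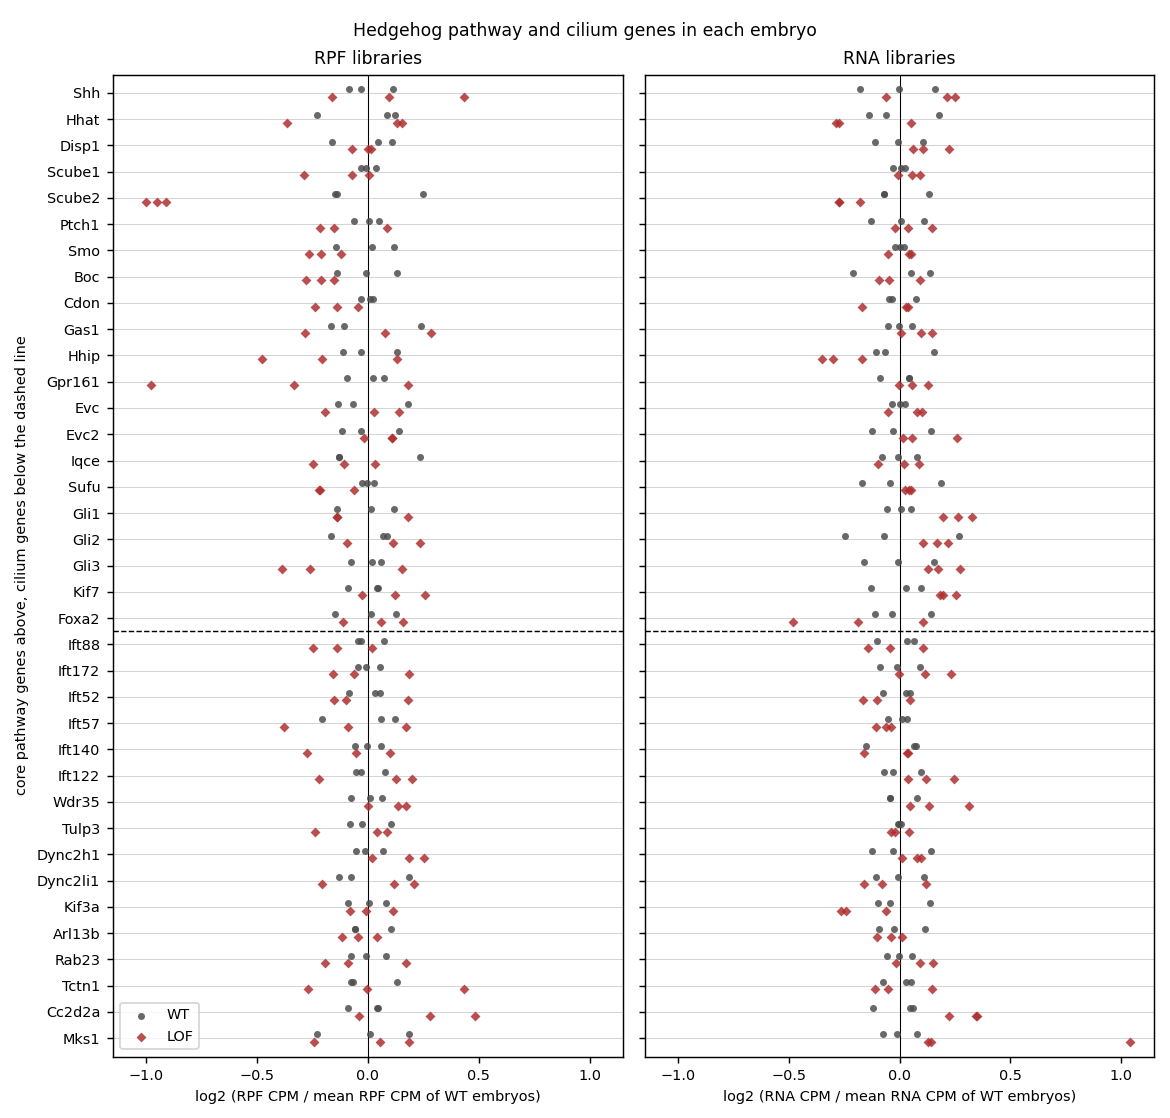
Log2 of each embryo's CPM over the mean of the WT embryos, for RPF (left) and RNA (right), with WT embryos as grey circles and LOF embryos as red diamonds, core pathway genes above and cilium genes below the dashed line. All 3 LOF embryos of Scube2 lie near -1 in RPF, where Gpr161 has 1 LOF embryo, and Mks1 has 1 LOF embryo near 1 in RNA.

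No cilium gene was called in RPF. Of 16 tested, edgeR called 0 (2.19% of all transcripts) and 0 had an unadjusted p below 0.05 (13.7%). LOF embryos lay below WT embryos without overlap for 0 (9.45%) and above them for 0 (9.92%), with log2 fold changes from -0.11 to 0.25. In the IFT-B complex, which carries cargo to the ciliary tip, Ift88 RPF was 25.2, 27.3 and 25.4 CPM in WT and 21.9, 23.6 and 26.3 CPM in LOF, and its RNA was 21.9, 21.4 and 19.5 against 22.5, 20.3 and 19.0 CPM. The genotypes overlapped, and the log2 fold changes were -0.11 in RPF (95% interval -0.34 to 0.12) and -0.01 in RNA (95% interval -0.21 to 0.19). The other IFT-B genes (Ift172, Ift52 and Ift57) and the IFT-A complex with its adaptor, which return cargo and bring membrane proteins in (Ift140, Ift122, Wdr35 and Tulp3), lay between -0.09 and 0.10 in RPF and between -0.07 and 0.17 in RNA.

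None of the 3 motors was called in RPF or RNA. Dync2h1, the heavy chain of the dynein that drives transport back from the tip, had the largest RPF difference among them, 0.16 (95% interval -0.02 to 0.34, edgeR FDR = 0.438), with 76.1, 78.4 and 82.8 CPM in WT and 89.8, 80.1 and 94.3 CPM in LOF. The genotypes overlapped. Dync2li1, its light intermediate chain, and Kif3a, a motor subunit for transport to the tip, had 0.04 and 0.01 in RPF, and the GTPases Arl13b and Rab23 both had -0.04.

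In RNA, 1 of the 37 genes was called, the transition zone gene Cc2d2a, which was higher in LOF. Over all transcripts 5.02% were called. Embryos of both genotypes did not overlap with LOF lower for 2 genes (Scube2 and Hhip, background 12.6%) and with LOF higher for 4 (Gli1, Kif7, Cc2d2a and Mks1, background 10.2%). The median RNA log2 fold change was 0.045 for the core genes and -0.007 for the cilium genes, with -0.002 over all transcripts.

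Cc2d2a (chr5:43662346-43740972, plus strand, 40 exons) encodes a protein of the transition zone, the gate at the base of the cilium. Its RNA was 19.5, 21.9 and 22.1 CPM in WT and 24.7, 26.9 and 27.0 CPM in LOF, and all LOF embryos lay above all WT embryos. The fitted difference was 0.30 on the log2 scale (standard error 0.08, edgeR FDR = 0.0972), just past the threshold. The call was lost with DESeq2 (FDR = 0.152), with the Y-linked covariate (FDR = 0.42), with limma-voom with sva (FDR = 0.138), and without WT replicate 1, 2 or 3 or LOF replicate 2 or 3 (FDR = 0.146 to 0.332). With the replicate number as a block its FDR was 0.107. The fold itself hardly moved, from 0.28 to 0.34 over the 7 alternatives with all embryos and from 0.25 to 0.33 with 1 embryo left out. Cc2d2a RPF was 31.7, 31.8 and 29.0 CPM in WT and 43.1, 30.0 and 37.5 CPM in LOF. LOF replicate 2 lay within the WT range, and the RPF log2 fold change of 0.25 was not called (standard error 0.13, FDR = 0.414). Without that embryo it was 0.38 and called (FDR = 0.0441, edgeR), when 1449 transcripts were called in all. No LOF embryo in that fit had Y-linked reads near the WT level. With the covariate for Y-linked reads, which sets LOF replicate 2 alone against the WT embryos, the RPF difference was -0.04.

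Mks1, another transition zone gene, is named after its values were seen. Its RNA was 9.26, 9.86 and 8.87 CPM in WT and 10.3, 10.2 and 19.2 CPM in LOF, so that LOF replicate 3 stood apart from the other 5 embryos. Its RPF in the same embryo was 12.8 CPM, within the WT range of 10.5 to 14 CPM. Tctn1, a further transition zone gene, had 0.07 in RPF and -0.01 in RNA, and 27.5% of its transcript overlaps Hvcn1 on the opposite strand.

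For RPF beyond RNA, the change in translation efficiency, 0 of the 37 genes were called by edgeR (0.0% of all transcripts), also with DESeq2 and limma-voom. Unadjusted p lay below 0.05 for 2 genes, Scube2 and Gli3, against 4.44% of all transcripts. LOF embryos lay below WT embryos without overlap for 4 genes (Scube1, Scube2, Smo and Ift172, background 5.19%) and above them for 0 (background 6.87%). Of the 21 core genes 17 had a negative difference, as did 11 of 16 cilium genes and 48.0% of all transcripts. The medians were -0.108 for the core genes, -0.037 for the cilium genes and 0.007 over all transcripts.

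**Figure D4:**
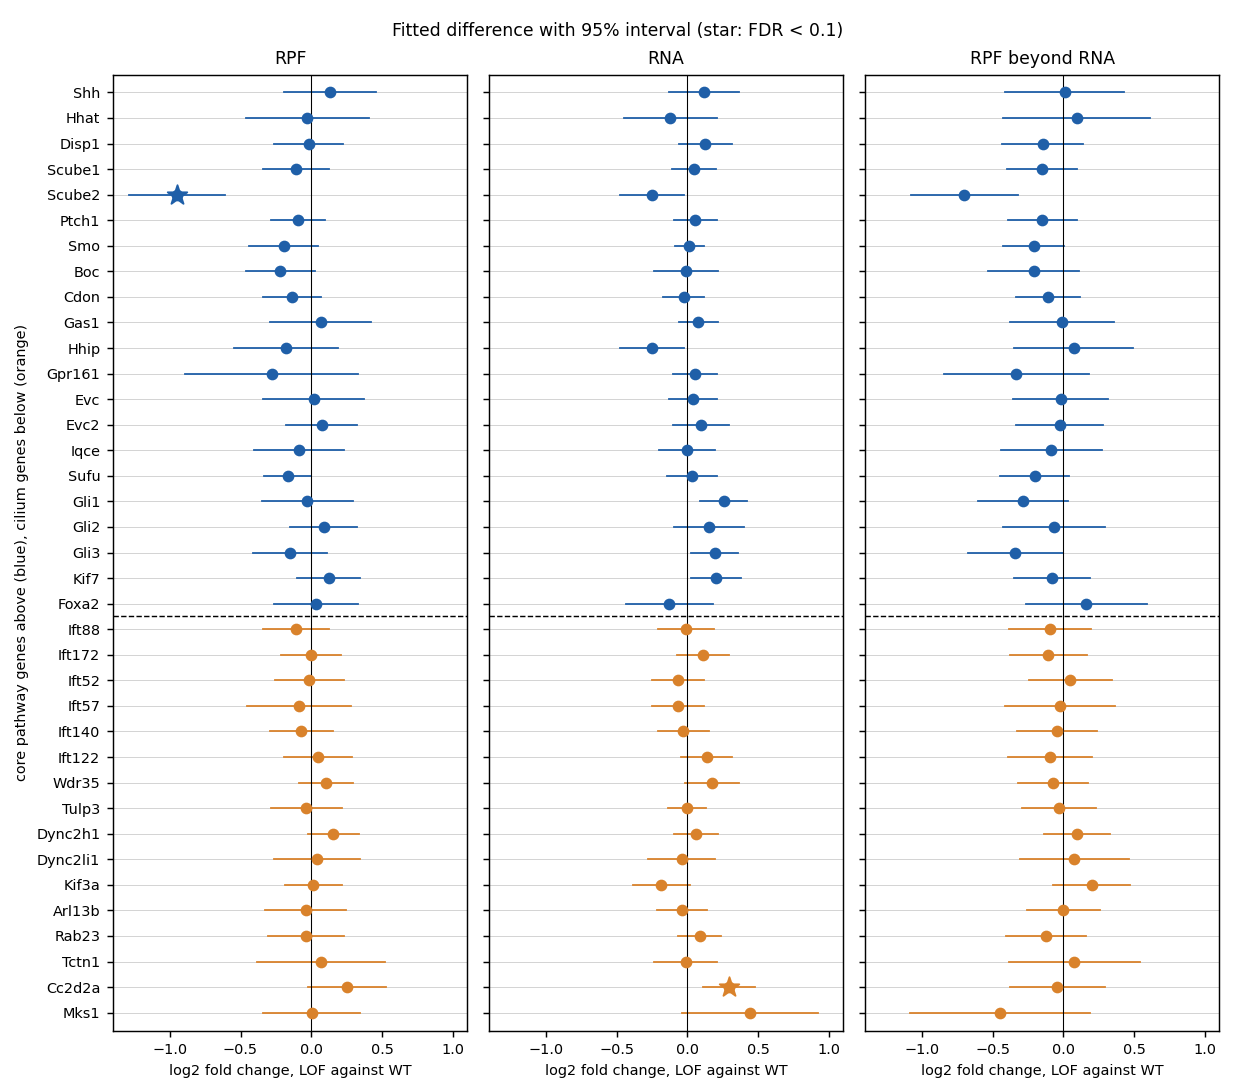
Fitted log2 fold change of LOF against WT with its 95% interval for 37 genes in RPF, RNA and RPF beyond RNA, core pathway genes in blue and cilium genes in orange, with a star where FDR < 0.1. Scube2 in RPF (-0.95) and Cc2d2a in RNA (0.30) are the starred genes, and most core genes lie left of 0 in the right panel.

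The lower median of the core genes was uneven over the embryos. Relative to the WT mean, the median core gene stood at -0.131, -0.045 and -0.137 in RPF of LOF replicates 1, 2 and 3, against -0.009, 0.016 and -0.027 in the WT embryos. The LOF embryos lay below the WT embryos, LOF replicate 2 by the least. In RNA the same medians were 0.064, 0.040 and 0.055 in LOF and -0.031, 0.080 and -0.047 in WT, with overlap. For RPF per RNA they were -0.133, -0.046 and -0.151 in LOF and 0.004, -0.054 and 0.064 in WT, and LOF replicate 2 lay within the WT range. The cilium genes overlapped in RPF, at 0.075, 0.000 and -0.012 in LOF and -0.016, -0.008 and 0.003 in WT.

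The RPF libraries also differed in how they followed the GC content of 5′UTRs. Across 12112 transcripts, Spearman's rho between 5′UTR GC content and how far each RPF library departed from the mean library was -0.305 and -0.164 in LOF replicates 1 and 3, 0.241 in LOF replicate 2, and 0.055 to 0.183 in the WT embryos. These transcripts share the libraries, and the rho is a description, whose part in the core medians was not tested. With an offset for 5′UTR GC content the core RPF median was -0.042. With the covariate for Y-linked reads, which sets LOF replicate 2 alone against the WT embryos, the core RPF median was -0.046.

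Other genes of the same pathway were followed in wider lists. Of 25 further Hedgehog pathway genes tested, edgeR called 1 lower in RPF (2.19% of all transcripts called) and 2 lower in RNA (5.02%), and called none higher. By sign alone, 17 of the 25 were lower in RPF and 9 in RNA, with medians of -0.067 and 0.031. Lrp2, an endocytic receptor that binds the ligand in the neural tube and is also abundant in visceral endoderm, had RPF of 824, 791 and 716 CPM in WT and 579, 626 and 579 CPM in LOF. Its RNA was 560, 525 and 460 against 387, 452 and 394 CPM. The genotypes did not overlap in either, with log2 fold changes of -0.39 in RPF (FDR = 0.0437) and -0.32 in RNA (FDR = 0.069, edgeR) and -0.06 in RPF beyond RNA.

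Ihh, a second Hedgehog ligand, which is made in visceral endoderm at this stage, fell in RNA from 10.0, 10.6 and 8.48 CPM in WT to 5.75, 7.70 and 6.43 CPM in LOF (log2 fold change -0.54, standard error 0.14, edgeR FDR = 0.0816). All LOF embryos lay below all WT embryos. Its RPF was 6.58, 5.15 and 5.84 against 3.50, 5.70 and 3.61 CPM, with overlap. The visceral endoderm markers differed in the same embryos by the medians given above, and their part in the Lrp2 and Ihh results was not tested.

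None of the further cilium genes was called by edgeR in RPF, RNA or RPF beyond RNA. This held for 20 other IFT and motor genes, 16 BBSome and ciliary membrane genes, and 19 other transition zone and basal body genes. Unadjusted p lay below 0.05 for 1, 1 and 0 of them in RPF and for 1, 1 and 1 in RNA. Over all transcripts, 2.19% were called in RPF and 5.02% in RNA, and 13.7% and 17.0% had an unadjusted p below 0.05. Their median log2 fold changes lay between -0.049 and -0.027 in RPF and between -0.027 and 0.006 in RNA.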

How the data were processed

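Counts for 22467 transcripts in 12 libraries were deposited. Per the study's methods and the labels, the authors trimmed reads (UMI-tools, FASTX-Toolkit, cutadapt), removed rRNA, tRNA and snRNA reads with bowtie2, aligned the rest to 1 canonical GENCODE transcript per gene (GRCm38/mm10) and removed PCR duplicates by molecular identifier. The deposited counts are whole numbers without normalization: A sites in the CDS without its first 15 and last 5 codons for RPF, and reads on the entire transcript for RNA. Whether counting used strand is not given in the sources used here. Every column was matched to 1 sample by its labels.

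Transcripts above 0.75 CPM in at least 3 RPF libraries (12576) were kept. RPF and RNA libraries were TMM-scaled apart and tested for genotype alone with edgeR 4.0.16 in R 4.3.3, and RPF beyond RNA as the interaction in 1 model of 12 libraries. These follow the study's filter, scaling and FDR threshold of 0.1, and its voom, limma, sva and locfdr steps were tried only in part (limma 3.58.1, sva 3.50.0). DESeq2 1.42.0, RLE size factors, no filter, a replicate block, an embryo block, covariates and each embryo left out were alternatives. Per-embryo log2 RPF per RNA had 0.5 counts added. Intervals are at 95%.

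The members and lists were chosen with earlier results of these data known. Full statistics are given for 9 fixed genes (Shh, Ptch1, Smo, Gli1, Gli2, Gli3, Hhip, Foxa2, Ift88) and for members with FDR < 0.1, or with an unadjusted p below 0.05 and embryos without overlap. Identifiers were matched to GENCODE M21, 21976 of them with the same version, 477 with another and 14 without a match. The fit was tested on simulated counts. Each embryo gave 1 RPF and 1 RNA library, and replicate numbers of both genotypes belong to different embryos.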

Additional observations from a re-analysis of the deposited data

How the results depend on the processing

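With a covariate for Y-linked reads, 0 members were called in RPF and 0 in RNA, and the core RPF median was -0.046. This covariate sets LOF replicate 2 alone against the WT embryos. Named genes turned sign under it in RPF (Gli1 0.176, Gli2 -0.095, Gli3 0.146, Kif7 -0.029, Cc2d2a -0.039), in RNA (Shh -0.082, Smo -0.049, Foxa2 0.121) and in RPF beyond RNA (Hhip -0.051, Foxa2 -0.061). With limma-voom and sva, 2 members were called in RPF (Scube2 and Sufu), when 1306 transcripts were called in all. That setting called 0 members in RNA, and Gli1 was 0.016 in RPF. The 5′UTR GC offset gave a core RPF median of -0.042. In RNA, DESeq2 called 0 members and limma-voom 2 (Cc2d2a and Gli1), with Ift88 at 0.003. Without the filter on low counts, Shh was -0.010 in RPF beyond RNA.

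With the replicate block, 1 member was called in RPF (Scube2) and 0 in RNA. The numbers belong to different embryos, and deviations of same-numbered WT and LOF libraries correlated by -0.098 to 0.094. Whether same-numbered embryos shared a litter or a preparation is not known here. The embryo block changed no call.

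With 1 embryo left out, members called ranged from 0 to 4 in RPF and from 0 to 2 in RNA, and were 0 in RPF beyond RNA. The 4 in RPF (Cc2d2a, Dync2h1, Gli3 and Scube2, of 37 tested) were called without LOF replicate 2, when 1449 of 12576 transcripts were called. No LOF embryo in that fit had Y-linked reads near the WT level, so genotype and sex cannot be told apart in it. Calls over all transcripts went from 276 to between 4 and 1449 in RPF and from 631 to between 138 and 594 in RNA. The Y-linked covariate gave 44 and 42, sva 1306 in RPF, and no filter 437 in RPF. The core median ranged from -0.120 to -0.037 in RPF and from -0.174 to -0.084 in RPF beyond RNA, and the cilium median from -0.023 to 0.047 in RPF. Genes whose sign turned ranged in RPF from -0.034 to 0.267 (Shh), -0.142 to 0.035 (Gli1) and -0.042 to 0.105 (Foxa2). In RNA they ranged from -0.004 to 0.123 (Ptch1), -0.006 to 0.047 (Smo), -0.049 to 0.152 (Sufu) and -0.083 to 0.036 (Ift88). In RPF beyond RNA they ranged from -0.080 to 0.183 (Shh), -0.136 to 0.206 (Hhip), -0.212 to 0.009 (Gli2), -0.205 to 0.109 (Cc2d2a) and -0.222 to 0.030 (Ift88). The cause of these shifts was not tested. Scube2 stayed between -1.02 and -0.82 in RPF in all 14 alternatives and below 0 in RNA and RPF beyond RNA in all 13. RPF log2 fold changes of the members had standard errors up to 0.28, which limits what the low genes can show. The 3 embryos of a genotype set the precision of every test.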
